A study of Mus musculus with 8 samples.

Results

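Macrophage cultures grown from mouse bone marrow were followed from day 0 to day 3 of differentiation under CSF-1, with Thoc5 deleted after day 0. They are the 2 arrays that GEO labels with the genotype ERT2 Cre Thoc5 (flox/flox) and with tamoxifen, chosen by those labels from 8 arrays in all. Thoc5 (flox/flox) means that both copies of the gene carry sites at which Cre cuts, and ERT2 Cre is a recombinase that tamoxifen switches on. Each dual-colour array set cytoplasmic RNA of day 3, under CSF-1 and tamoxifen, against cytoplasmic RNA of day 0 without tamoxifen, from cells of the same genotype and the same biological experiment. The groups compared with them were flox cells without tamoxifen at day 3, on 2 arrays with the same day 0 RNA, and control cells (genotype ERT2 Cre alone) with tamoxifen at day 3, on 2 arrays with day 0 RNA of their own genotype. The fourth group, control cells without tamoxifen, entered the fit only. All groups carried the ERT2 Cre on a C57BL/6 x B6:129 Ola background. The labels do not give the promoter that drives the Cre, the age of the mice, the tamoxifen dose or whether mice were pooled. Replicate 2 was a second biological experiment with the dyes swapped, so experiment, dye direction and slide cannot be told apart. The day 3 ratio of the deleted cells takes in differentiation, the drug and the loss of Thoc5 together.

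CSF-1 is the growth factor on which macrophages depend. It acts through the receptor tyrosine kinase CSF1R, and under it marrow precursors and monocytes turn into adherent macrophages with many lysosomes, while granulocytes, which do not depend on it, are lost from the culture. THOC5 is a subunit of the THO complex. With export adaptors, THO forms the TREX complex, which packages new mRNA and hands it to the export receptor NXF1, and the series was made to ask what its loss does to CSF-1 induced differentiation.

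Of 17997 genes tested, 13 lacked a value on 1 of the 2 arrays. Over the 8 arrays 51.2% to 57.9% of the probes of a channel passed the background flag, and 0 spots were saturated. Values are log2 ratios of day 3 over day 0 unless stated otherwise, given for replicates 1 and 2 and then as the mean ± the standard error of a limma fit (n = 2 arrays per group). Adjusted p is limma's Benjamini-Hochberg value over the 17997 genes, and a gene passed at an adjusted p under 0.05. With 2 arrays per group the precision is limited. The fit takes out the shift that the arrays of an experiment share. Standard errors and p-values measure the scatter left after it, pooled over the groups, and not the full spread between the 2 experiments.

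Thoc5 itself checks the label. In flox cells with tamoxifen its normalised intensity was 852 and 759 at day 3, against 7002 and 6147 at day 0. The ratios were -3.04 and -3.02 in flox cells with tamoxifen, against -0.74 and -0.77 in flox cells without the drug and -0.21 and -0.15 in control cells with it. The arrays of flox cells with tamoxifen lay far below the other 4. The change from day 0 was -3.03 ± 0.07 (limma adjusted p = 2.31e-06), and the differences from flox cells without and control cells with tamoxifen were -2.27 ± 0.10 and -2.85 ± 0.10 (limma adjusted p = 0.000708 and 0.000744). The probe lies at chr11:4828807-4828866 of the mm9 build. The labels do not say which exons Cre removes, so whether the probe lies among them was not tested. Of the 20 measured genes of THO and TREX, 12 were lower at day 3 and 1 was higher (median -0.44, 0 higher and 7 lower without replicate 1, 1 and 8 without replicate 2). Only Thoc5 of these passed in the difference from flox cells without tamoxifen. Among the lower ones were the adaptor gene Alyref (-1.02 ± 0.08) and the export receptor gene Nxf1 (-0.90 ± 0.12), while Thoc3, another THO subunit, was the higher one (0.65 ± 0.12).

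**Figure D1:**
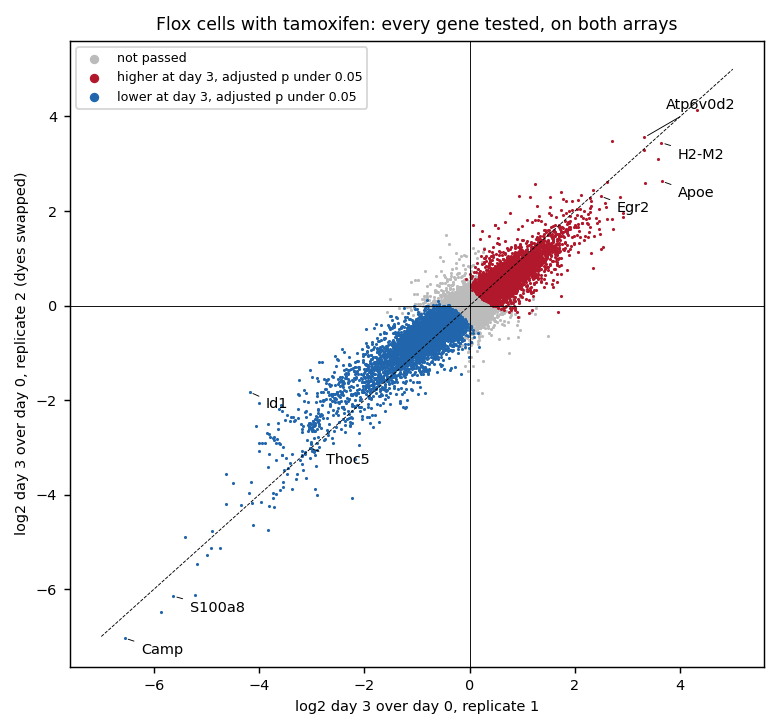
Each point is a gene, placed by its log2 ratio of day 3 over day 0 in flox cells with tamoxifen on the array of replicate 1 (horizontal) and of replicate 2 (vertical), with colour for genes that passed the test. Points lie along the dashed line of equal ratios, Thoc5 at -3.04 and -3.02, Camp at the lower end, and Id1 off the line at -4.18 and -1.83.

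Between day 0 and day 3 of flox cells with tamoxifen, 4591 genes (25.5% of those tested) were higher and 6011 (33.4%) lower. Most changes were small, since 686 genes were at least 2-fold higher and 1409 at least 2-fold lower. Large changes were mostly decreases, with 7 genes at least 8-fold higher and 83 at least 8-fold lower. The median over all genes was -0.05, and 90.8% of genes had ratios within 0.5 of each other on the 2 arrays. Without replicate 1 of flox cells with tamoxifen 5886 genes passed, and without replicate 2 7434. The counts for gene groups stand against the shares of all genes, 25.5% and 33.4%, and where leaving out an array of flox cells with tamoxifen moved a group's count by more than 1.5 times, the counts without that replicate are given beside it.

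Among the genes that fell most were many of neutrophils and their precursors. Camp, which encodes the antimicrobial peptide cathelicidin, had ratios of -6.55 and -7.03, a 111-fold decrease (-6.79 ± 0.08, limma adjusted p = 4.09e-07). The chitinase-like gene Chil3 had ratios of -5.87 and -6.48 (-6.18 ± 0.08). S100a8 and S100a9, the subunits of the calcium-binding protein calprotectin, had -5.63 and -6.15, and -5.22 and -6.13. For all of these both arrays gave falls of more than 5 on the log2 scale. Ctsg, the cathepsin G gene of primary granules, fell by 5.33, and Ms4a3, a marker of granulocyte and monocyte precursors, stood at -5.03 ± 0.08. Wfdc21, Ppbp (a platelet chemokine), Plac8, LOC620515 and a pair of genes of the stefin A cluster (Cstdc5 and Stfa2l1, whose sequences are close enough for probes to cross-hybridise) stood at -4.37 to -5.15, with -3.23 by a further probe of Plac8. Of the 7 measured genes of primary granules 6 were lower and 0 higher (median -2.92), and of 23 late granule and surface genes 21 were lower and 0 higher (median -3.24). Ctsc, the dipeptidyl peptidase that activates granule proteases, was the primary granule gene that did not pass (0.12 and -0.08). The transcription factor genes of these cells fell too. Myb had -4.19 and -3.96 (-4.08 ± 0.12), Gfi1 -3.64 ± 0.07 and Cebpe -3.27 ± 0.09, and of 15 progenitor and granulocyte factors 11 were lower and 1, Lmo2 (0.82 ± 0.08), higher. The late granule genes had a summed intensity of 138440 and 117700 at day 3, against 984308 and 825575 at day 0, and the macrophage markers 3200223 and 3283410 at day 3, against 2180672 and 2599598 at day 0. The first sum was lower and the second higher at day 3 on both arrays. In bulk RNA, fewer cells of a type and less RNA per cell cannot be told apart.

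The largest rises included lysosomal, surface and lipid genes. H2-M2, a non-classical MHC class I gene, had ratios of 3.64 and 3.44, an 11.7-fold increase (3.54 ± 0.11, limma adjusted p = 7.62e-06). Atp6v0d2, a subunit of the lysosomal proton pump that also takes part in macrophage fusion, had 3.32 and 3.56 (3.44 ± 0.17). Apoe, the apolipoprotein E gene, had 3.65 and 2.63 (3.14 ± 0.18), so its arrays stood further apart. The orphan receptor gene Gpr162 rose by 3.34 ± 0.34 and Pianp, which encodes a ligand of the receptor PILRA, by 3.30 ± 0.12. Cd83, a surface marker of activated antigen-presenting cells, had the same ratio of 2.61 on both arrays. Egr2, a zinc finger factor of macrophages, had 2.49 and 2.31, the sulfotransferase gene Sult1a1 3.34 and 2.60, and Hpgds, the haematopoietic prostaglandin D synthase gene, 2.86 and 2.30. C77080 had 2.71 and 3.49 and Tmem176a 2.91 and 1.95. Gm14461 was not well above background at day 0 and was at least 18.3-fold higher at day 3. Each of these 12 genes and of the 12 that fell most passed under every alternative of the processing that gave it a value (18 for Gm14461, H2-M2, Cstdc5 and Stfa2l1, which the strict filter removes).

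**Figure D2:**
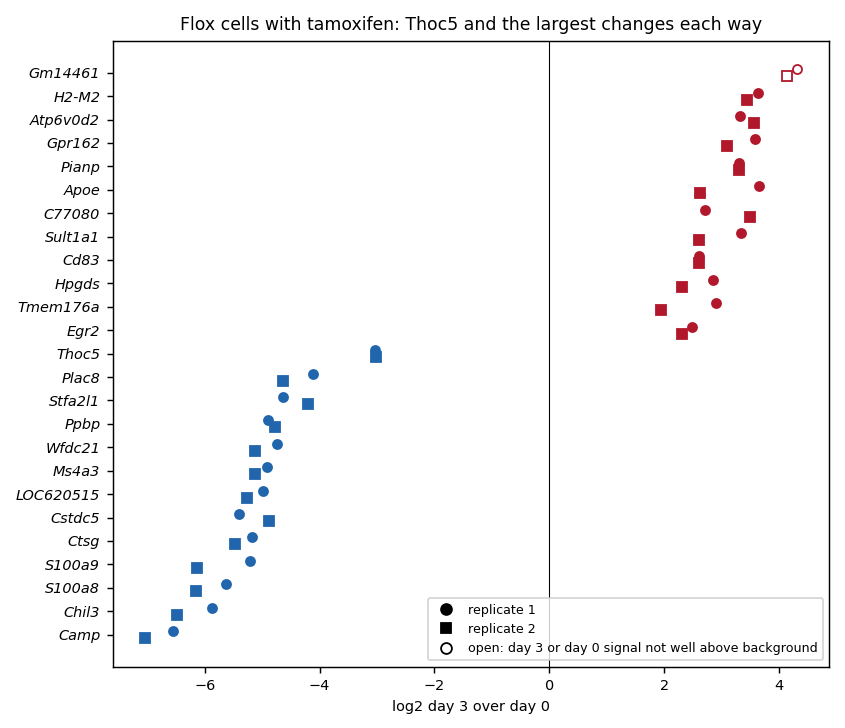
Log2 ratios of day 3 over day 0 in flox cells with tamoxifen (horizontal) for Thoc5 and the 12 genes with the largest changes each way (rows), with a circle for replicate 1, a square for replicate 2 and open symbols where a channel was not well above background. The 2 arrays of each gene lie on the same side of 0, and only Gm14461 has open symbols.

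Markers of other marrow cells moved as well. Of 14 megakaryocyte and platelet genes all 14 were lower at day 3 (median -2.31). Their summed intensity was 81180 and 49668 at day 3, against 314222 and 291488 at day 0. Of 10 measured eosinophil, basophil and mast cell genes 8 were lower, with sums of 2240 and 2410 at day 3, against 6913 and 7604 at day 0. Both sums were lower at day 3 on both arrays. Of 11 measured B lineage genes 8 were lower, among them Vpreb3, part of the pre-B cell receptor (-2.72 ± 0.19), and 1, Blnk (1.51 ± 0.09), was higher. The B lineage sum, 57349 and 55532 at day 3 against 25000 and 25697 at day 0, was higher at day 3, and the defining genes Pax5, Cd79a, Rag1 and Rag2 were not above background. Of 8 dendritic genes 6 were lower and Itgax higher, with sums of 41373 and 38169 at day 3, against 107233 and 86393 at day 0. Of 5 measured erythroid genes 3 were lower and 1 higher (0 higher and 2 lower without replicate 1, 0 and 3 without replicate 2), with sums of 1351 and 1212 at day 3, against 2905 and 2044 at day 0, and Klf1 and Alas2 were not above background. Of 6 measured T and NK genes 3 were lower and 2 higher (0 higher and 1 lower without replicate 1, 1 and 2 without replicate 2; sums of 10992 and 12094 at day 3, against 9809 and 12355 at day 0), and Cd3d, Cd3g, Cd8a and Ncr1 were not above background. Stromal and endothelial genes, 4 of 16 higher and 4 lower (7 higher and 1 lower without replicate 1, 4 and 9 without replicate 2), depended on the array, and their sums of 42719 and 93216 at day 3, against 62704 and 56390 at day 0, differed in direction between the arrays. The matrix genes Postn (1.24 and 2.57), Bgn (1.30 and 1.81) and Dcn (1.09 and 1.26) rose, while Cdh5, the VE-cadherin gene, fell (-2.29 ± 0.14). The part of these cells in the other results was not tested.

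A pair of further comparisons asks which changes went with the deletion. The tamoxifen difference is the day 3 ratio of flox cells with tamoxifen minus that of flox cells without it, and it includes any action of the drug. The genotype difference is the ratio of flox cells with tamoxifen minus that of control cells with tamoxifen, and it includes any difference between the genotypes at day 0. In the tamoxifen difference 876 genes (4.87%) were higher and 748 (4.16%) lower, and in the genotype difference 975 (5.42%) were higher and 1051 (5.84%) lower. Both use the same 2 arrays of flox cells with tamoxifen. Higher in both differences were 535 genes (2.97%) and lower in both 480 (2.67%), and the words raised and lowered are used for these. The counts depend on the block for the experiment and on single arrays. Without the replicate block 470 genes passed in the tamoxifen difference and 531 in the genotype difference. Without replicate 1 of control cells with tamoxifen limma called 0 genes in the genotype difference (2861 at an unadjusted p under 0.05), and without its replicate 2 26, so without that replicate 1 no gene passed in both differences. Without replicate 1 or 2 of flox cells with tamoxifen, 454 and 221 genes passed in the tamoxifen difference and 324 and 241 in the genotype difference. Without replicate 1 or 2 of flox cells without tamoxifen, 290 and 211 passed in the tamoxifen difference.

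The genes raised most included endolysosomal, surface and signalling genes. Mcoln3, an endolysosomal cation channel, had ratios of 1.53 and 2.29 in flox cells with tamoxifen, against -2.18 and -1.31 in flox cells without the drug and -0.76 and -0.52 in control cells with it. Its ratios were positive in the deleted cells and negative on the other 4 arrays, with differences of 3.66 ± 0.17 and 2.55 ± 0.17 (limma adjusted p = 0.000708 and 0.00271). A further probe of Mcoln3 gave a tamoxifen difference of 2.15. Il7r, the interleukin 7 receptor gene, had 0.73 and 1.17 in flox cells with tamoxifen, against -1.87 and -1.73 in flox cells without and -2.09 and -0.50 in control cells with tamoxifen. Rasgef1a, an exchange factor of Ras proteins, had 1.89 and 2.01, against -0.30 and -0.12 in untreated flox and -0.33 and -0.04 in treated control cells. For both genes the deleted cells lay above the other 4 arrays, and for Il7r the control arrays stood far apart. H2-M2 was raised by 3.22 ± 0.15 in the tamoxifen difference and 2.54 ± 0.15 in the genotype difference, though in control cells H2-M2 and Gm14461 were not well above background at day 0. Gm14461, C77080, Oit3, Mctp1 (a calcium-binding membrane protein), Anxa1 (annexin A1) and Htr2b (a serotonin receptor) were raised by 1.87 to 3.59. A further probe of Mctp1 gave a tamoxifen difference of 0.41. Of the 10 genes raised most, Anxa1, Htr2b, Il7r and Oit3 missed the threshold of the tamoxifen difference under at least 1 alternative. All 10 missed that of the genotype difference without replicate 1 of control cells with tamoxifen, where no gene tested passed, so this does not mark them. Anxa1, Htr2b, Il7r and Oit3 missed it under other alternatives too.

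The genes lowered most were led by Id1, whose protein pairs with other transcription factors and keeps them off DNA. Id1 had -4.18 and -1.83 in flox cells with tamoxifen, against -0.38 and 1.39 in flox cells without the drug and 0.37 and 3.52 in control cells with it. It was lowest in the deleted cells in each experiment, but the experiments stood far apart in every group. The differences were -3.51 ± 0.63 and -4.95 ± 0.63 (limma adjusted p = 0.0237 and 0.00979). Ccl12, a chemokine that acts on CCR2, had -2.49 and -2.46 in flox cells with tamoxifen, against 0.64 and 0.34 in flox cells without and 0.44 and 0.08 in control cells with tamoxifen. Nrxn2, a neurexin gene, and Raver2, an RNA-binding protein gene, showed another pattern. Nrxn2 had 0.00 and 0.11 in flox cells with tamoxifen, against 2.64 and 3.04 in flox cells without and 3.1 and 2.62 in control cells with tamoxifen. Raver2 had 0.56 and 0.52, against 3.24 and 3.24 in untreated flox and 3.34 and 2.93 in treated control cells. Both had high ratios in the groups that kept Thoc5, and in the deleted cells Raver2 rose by 0.54 ± 0.10 and Nrxn2 did not pass (0.05 ± 0.18). A further probe of Nrxn2 gave a tamoxifen difference of -0.94. Il2ra, the interleukin 2 receptor alpha chain, was not well above background at day 3 in the deleted cells and was at least 4.10-fold lower there than in flox cells without tamoxifen. The C-type lectin gene Cd209f, Dmwd, LOC100045212 and Smad6 had differences of -2.12 to -2.88. For all 20 genes named here, Thoc5 included, both arrays of flox cells with tamoxifen lay outside the range of the other 4. The genes were chosen from these same arrays for large differences, so this describes the choice and adds no further support. Of the 10 lowered most, Ccl12, Dmwd, Id1 and Smad6 missed the threshold of the tamoxifen difference under at least 1 alternative. All 10, Thoc5 included, missed that of the genotype difference without replicate 1 of control cells with tamoxifen, where no gene tested passed. Ccl12, Cd209f, Dmwd, Id1, Il2ra, Nrxn2 and Smad6 missed it under other alternatives too.

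**Figure D3:**
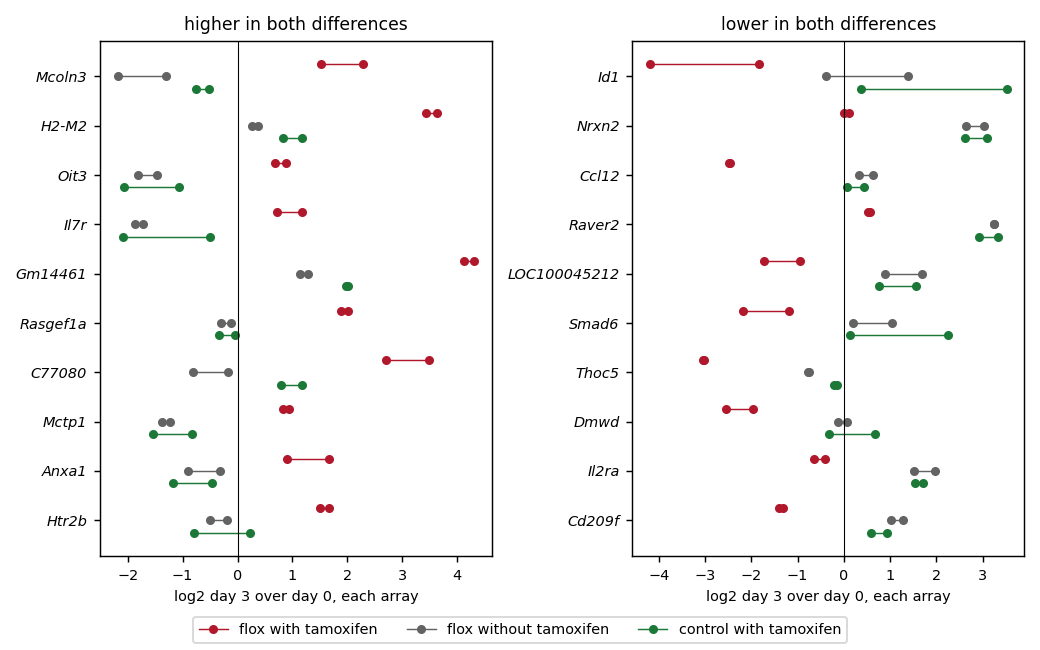
Log2 ratios of day 3 over day 0 on each array (horizontal) of the 10 genes raised most (left) and the 10 lowered most (right) in both differences, with flox cells with tamoxifen in red above flox cells without tamoxifen in grey and control cells with tamoxifen in green, and a line joining the 2 arrays of a group. In every row the red points lie outside the range of the grey and green ones, and the widest lines are those of Id1.

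Id1 was not alone among the genes of its pathway. The ID genes and the inhibitory SMAD genes are textbook targets of bone morphogenetic protein signalling, in which activated receptors pass the signal to SMAD1 and SMAD5. Of 10 measured ID and SMAD genes, 6 were lower at day 3 and 1 higher (median -0.34, 0 higher and 4 lower without replicate 1, 0 and 4 without replicate 2), and 4 were lowered in both differences. Id3 had -1.58 and -0.90 in flox cells with tamoxifen, against 0.46 and 1.07 in flox cells without the drug and 0.18 and 2.14 in control cells with it. Smad6 had -2.19 and -1.19, against 0.19 and 1.05 in untreated flox and 0.13 and 2.26 in treated control cells, and Smad7 -1.44 and -0.78, against 0.35 and 0.78 in untreated flox and 0.76 and 1.69 in treated control cells. All 3 fell in the deleted cells and had ratios above 0 on each array of the other groups, and like Id1 they were higher in experiment 2 throughout. The receptor genes Bmpr1a and Bmpr2 did not pass at day 3 (-0.09 and -0.18). Smad1 and Smad5 fell by 0.33 and 0.35.

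Most monocyte genes fell, and 4 fell further than in the other groups. Of 17 measured monocyte genes 12 were lower at day 3 and 2 higher (median -1.34, against -0.05 over all genes, 2 higher and 11 lower without replicate 1, 1 and 11 without replicate 2). Ccr2, the receptor that brings monocytes out of the marrow, had -4.13 and -4.17 in flox cells with tamoxifen, against -2.47 and -2.55 in flox cells without the drug and -3.33 and -2.96 in control cells with it. F13a1, the coagulation factor XIII subunit made by monocytes, had -3.83 and -4.74, against -2.19 and -2.98 in untreated flox and -1.70 and -2.47 in treated control cells. Each had negative ratios in all 3 groups and the lowest where Thoc5 was deleted. Ifitm6 and Treml4 were lowered too, at -1.92 ± 0.24 and -0.71 ± 0.16 in the genotype difference. A further probe of F13a1 gave -1.62 at day 3 and a tamoxifen difference of -1.63.

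Macrophage genes split. Of 35 measured macrophage markers 16 were higher at day 3 and 9 lower (median 0.19, 11 higher and 5 lower without replicate 1, 13 and 7 without replicate 2), and 5 were raised and 5 lowered in both differences. After Apoe the highest were Cd68, a lysosomal glycoprotein, with 1.87 and 1.49 and C1qb, a complement subunit, with 1.93 and 1.27. Vcam1 (-2.14 ± 0.33, and -0.67 by a further probe) and Stab1 (-1.71 ± 0.08) fell. Msr1, the scavenger receptor gene, fell by 1.41, while its further probe stood at 0.74. The raised ones were Trem2, Cd9, Lpl, Gpnmb and Mpeg1. Trem2, a lipid-sensing receptor, had 0.90 and 0.79 in flox cells with tamoxifen, against -0.46 and -0.39 in flox cells without the drug and -0.62 and -0.21 in control cells with it. Cd9, a tetraspanin, had 0.42 and 0.58, against -1.19 and -1.23 in untreated flox and -1.36 and -1.18 in treated control cells. Both rose in the deleted cells and had negative ratios on all other arrays. Lpl (lipoprotein lipase), Gpnmb (a lysosomal glycoprotein) and Mpeg1 (perforin-2) were raised by 0.96 to 1.71 in the tamoxifen difference, with 0.63 by a further probe of Mpeg1. The lowered ones included the immunoglobulin receptors Fcgr1 and Fcgr4. Fcgr4 had -0.16 and -0.53 in flox cells with tamoxifen, against 1.65 and 1.29 in flox cells without the drug and 1.77 and 1.03 in control cells with it. The scavenger receptor gene Marco, Cd5l and Aif1 stood at -1.01 ± 0.15, -1.31 ± 0.17 and -1.31 ± 0.15 in the tamoxifen difference. From day 0, though, Cd5l rose in the deleted cells, at 0.41 to 0.59 over the alternatives.

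Of 25 measured monocyte and macrophage transcription factors 7 were higher at day 3 and 9 lower (median -0.13). Spi1, which encodes the master regulator PU.1, rose by 1.94 ± 0.19 and passed in neither difference. Mitf, a factor that acts on lysosomal genes, was raised by 0.63 ± 0.10 in the tamoxifen difference, while its further probe stood at -0.04 at day 3 and 0.47 in that difference, and Bhlhe41 was raised by 0.62 ± 0.11, with 0.28 by its further probe. Klf2, a factor of quiescent monocytes, had -1.37 and -1.32 in flox cells with tamoxifen, against 0.34 and 0.26 in flox cells without the drug and 0.38 and 0.12 in control cells with it. Its ratio was negative on both arrays of the deleted cells and positive on the other 4. Klf4, a factor of monocyte formation, did not pass from day 0 (-0.56 and -0.14) and stood at -1.22 ± 0.24 in the tamoxifen difference, with 0.62 and 1.11 in flox cells without tamoxifen. Spic, Batf3 and Cebpa stood at -1.41, -1.02 and -0.49 in the same difference.

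The CSF-1 receptor gene itself changed little. Of 27 measured genes of the receptor and its signalling 4 were higher at day 3 and 10 lower (median -0.11, 1 higher and 4 lower without replicate 1, 1 and 8 without replicate 2). Csf1r, the receptor gene, stood at 0.17 and -0.58 in flox cells with tamoxifen, against 0.13 and -0.58 in flox cells without the drug and 0.26 and -0.61 in control cells with it. Its change from day 0 was -0.21 ± 0.07, and the differences of 0.01 ± 0.10 and -0.04 ± 0.10 did not pass (95% intervals -0.23 to 0.25 and -0.28 to 0.20). Tyrobp, the adaptor DAP12, rose by 1.14 ± 0.09. Among those lowered in both differences were Lyn (-0.80 ± 0.12 in the tamoxifen difference), a Src family kinase, Dok2 (-0.60 ± 0.11), a docking protein, and Socs1 (-1.13 ± 0.16), an inhibitor of cytokine signalling. Cblb, a ubiquitin ligase, was raised by 0.67 ± 0.14, though its further probe stood at -0.08. Of 25 immediate early and ERK feedback genes 5 were higher and 10 lower (median -0.25, 2 higher and 6 lower without replicate 1, 4 and 9 without replicate 2). Etv5, an ETS factor induced by ERK, had -1.40 and -0.82 in flox cells with tamoxifen, against 0.28 and 0.60 in flox cells without the drug and 0.31 and 1.48 in control cells with it. Egr2 went the other way, raised by 2.43 ± 0.16 and 1.23 ± 0.16.

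Lysosomal genes were among those raised. The hydrolases of the lysosome digest what macrophages take up, and its proton pump, the V-ATPase, keeps the lumen acid. Of 39 measured hydrolase genes 19 were higher at day 3 and 4 lower (median 0.26, against -0.05 over all genes, 13 higher and 2 lower without replicate 1, 13 and 4 without replicate 2), and 10 were raised and 2 lowered in both differences. Of 31 genes of the lysosomal membrane, channels and proton pump 19 were higher and 3 lower (median 0.32, 9 higher and 1 lower without replicate 1, 11 and 2 without replicate 2), and 10 were raised and 0 lowered. The hydrolase median was 0.38 in the tamoxifen difference but only 0.15 in the genotype difference, and the median of the membrane list 0.49 and 0.39. Ctsk, the collagen-degrading cathepsin K, had 0.17 and 0.49 in flox cells with tamoxifen, against -1.69 and -1.74 in flox cells without the drug and -1.02 and -0.85 in control cells with it. Ctsb, cathepsin B, had 0.59 and 0.11, against -0.51 and -0.90 in untreated flox and -0.38 and -0.64 in treated control cells. Both had positive ratios on both arrays of the deleted cells and negative ones on the other 4. Arsb, Galc, Naglu, Gusb, Ctsa, Ctsd and Ctsz, hydrolases of sulfated sugars, lipids and proteins, were raised by 0.64 to 1.13 in the tamoxifen difference, with 0.21 by a further probe of Arsb. Ctsd stood at 0.03 at day 3 by the probe used and at 2.11 by its further probe, with tamoxifen differences of 1.08 and 0.87. Acp5, the tartrate-resistant acid phosphatase, and Ctsc were the 2 lowered hydrolases (-1.44 ± 0.13 and -0.63 ± 0.13). Of the pump, Atp6v1a, Atp6v1c1, Atp6v1d, Atp6v0c, Atp6ap1 and Atp6v0d2 were raised. Atp6v0d2 was raised by 2.59 in the tamoxifen difference and by less in the genotype difference. Scarb2, Cd63 and the channel Mcoln2 were raised beside Mcoln3. Lamp2 fell by 0.38 and was at 0.76 by a further probe.

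Genes of the lysosome often carry the CLEAR element, bound by the factors TFEB and TFE3, near their start. The core TCACGTG was searched on both strands in the RefSeq promoters of the GRCm38.p6 build, from 250 bases before to 50 after the start. It was found for 4.29% of the 27025 genes of the table, for 8 of the 32 hydrolase genes that have a promoter there and for 7 of the 23 membrane genes. A match is a description of these letters and not a site of binding. The 4 members that hold it and were raised in both differences, Naglu at chr11:101069844-101070143 (plus strand), Atp6v1a at chr16:44139210-44139509 (minus strand), Ctsa at chr2:164833523-164833822 (plus strand) and Ctsd at chr7:142387778-142388077 (minus strand), are shown for their shared letters. Capitals mark the matches, which overlap on the 2 strands where they read TCACGTGA.
Naglu: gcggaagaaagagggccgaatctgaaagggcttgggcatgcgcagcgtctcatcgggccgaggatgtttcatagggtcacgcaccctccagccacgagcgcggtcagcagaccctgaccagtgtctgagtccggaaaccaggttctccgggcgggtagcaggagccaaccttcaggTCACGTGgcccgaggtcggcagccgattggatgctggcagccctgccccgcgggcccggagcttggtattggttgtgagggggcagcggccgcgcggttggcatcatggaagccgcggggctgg
Atp6v1a: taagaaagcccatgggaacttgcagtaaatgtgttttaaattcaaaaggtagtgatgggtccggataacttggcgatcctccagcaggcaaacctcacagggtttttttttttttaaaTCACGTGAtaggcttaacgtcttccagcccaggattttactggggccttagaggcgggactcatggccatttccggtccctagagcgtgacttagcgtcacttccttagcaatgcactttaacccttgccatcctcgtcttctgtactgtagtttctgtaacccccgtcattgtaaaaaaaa
Ctsa: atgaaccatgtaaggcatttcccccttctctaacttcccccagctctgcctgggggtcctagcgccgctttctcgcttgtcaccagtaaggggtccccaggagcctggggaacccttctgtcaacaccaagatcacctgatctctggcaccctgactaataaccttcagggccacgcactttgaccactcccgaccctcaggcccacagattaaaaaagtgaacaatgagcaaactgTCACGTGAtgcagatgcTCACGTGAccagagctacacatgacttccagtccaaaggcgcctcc
Ctsd: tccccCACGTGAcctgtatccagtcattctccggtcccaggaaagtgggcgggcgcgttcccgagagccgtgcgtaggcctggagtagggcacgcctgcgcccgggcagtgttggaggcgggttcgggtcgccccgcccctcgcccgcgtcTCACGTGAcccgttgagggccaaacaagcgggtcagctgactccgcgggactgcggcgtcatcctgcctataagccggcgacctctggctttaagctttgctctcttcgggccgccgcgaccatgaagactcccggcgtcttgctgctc
The other 11 members with the core, such as Lamp1 (0.55 ± 0.12 in the tamoxifen difference), Mcoln1 (0.77 ± 0.12), Gla (0.11 ± 0.10) and Gaa (0.26 ± 0.19), were not raised in both differences.

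Lipid handling and sterol synthesis genes moved in different ways. Of 19 genes of LXR targets and lipid handling 11 were higher at day 3 and 3 lower (median 0.65, the highest median of the 39 lists). Fabp4, a fatty acid binding protein, had 0.42 and 0.97 in flox cells with tamoxifen, against -1.60 and -1.78 in flox cells without the drug and -0.92 and -1.19 in control cells with it. Fabp5 and Lpl were raised with it, by 1.25 ± 0.17 and 1.43 ± 0.33 in the tamoxifen difference. Pltp, a phospholipid transfer protein, rose by 1.48 ± 0.12 and passed in neither difference. Of 24 cholesterol synthesis genes 8 were higher at day 3 and 10 lower (median -0.08, 5 higher and 4 lower without replicate 1, 6 and 5 without replicate 2), and their medians were -0.38 in the tamoxifen difference and -0.41 in the genotype difference, against -0.01 over all genes in each. Sqle, squalene epoxidase, had -0.74 and -0.46 in flox cells with tamoxifen, against 0.31 and 0.63 in flox cells without the drug and -0.14 and 0.13 in control cells with it. Cyp51, lanosterol demethylase, had -0.42 and -0.16, against 0.46 and 0.66 in untreated flox and 0.40 and 0.62 in treated control cells. Idi1 and Hsd17b7 were also lowered. Srebf2, the master regulator of this pathway, was raised by 0.93 ± 0.15 in the tamoxifen difference. Its further probe stood at -0.79 at day 3 and -0.33 in that difference.

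Cell division genes fell. Of 37 measured mitosis genes 36 were lower at day 3 and 0 higher (median -1.17). Mki67, the proliferation antigen Ki-67, had -2.40 and -2.19 in flox cells with tamoxifen, and Cdc20, an activator of the anaphase-promoting complex, -2.31 and -2.03, against -1.15 and -1.06 in flox cells without the drug and -1.31 and -1.35 in control cells with it. Cdc20, Ube2c, Ccnb2 and Cenpa were lowered in both differences, at -0.71 to -1.14 in the tamoxifen difference, and Mki67 passed in neither. DNA replication genes behaved in another way. Of 41 genes 27 were lower at day 3 and 5 higher (median -0.50, 0 higher and 18 lower without replicate 1, 2 and 18 without replicate 2), but 5 were higher and 0 lower in the tamoxifen difference, and 16 higher and 0 lower in the genotype difference (median 0.53). The median of the tamoxifen difference was smaller, at 0.16. On replicates 1 and 2 the list medians were -0.72 and -0.30 in flox cells with tamoxifen. They were -0.77 and -0.59 in flox cells without the drug and -1.31 and -0.85 in control cells with it. Rrm2, a subunit of ribonucleotide reductase, had -0.80 and -0.02 in flox cells with tamoxifen, against -1.42 and -1.22 in flox cells without the drug and -2.13 and -1.33 in control cells with it. Pola1 and Prim2, of the primase complex, and Lig1, DNA ligase, were raised too. From day 0 Pola1 and Lig1 still fell, at -0.76 to -0.63 and -0.79 to -0.63 over the alternatives. Of 22 G1 cyclin, CDK and inhibitor genes 13 were lower and 2 higher (2 higher and 8 lower without replicate 1, 1 and 9 without replicate 2), and Cdkn1c, the inhibitor p57, was one of those raised, with 1.22 and 1.11 in flox cells with tamoxifen, against -0.22 and -0.42 in flox cells without and -0.78 and -0.21 in control cells with tamoxifen.

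Mitosis genes often carry the cell cycle genes homology region, CHR, read here as TTTGAA on either strand. It was found for 20.2% of the genes of the promoter table and for 22 of the 30 mitosis genes that have a promoter there, of which Ndc80 alone did not fall at day 3. In the whole list 36 of 37 genes fell, so a fall did not set apart the genes with the motif. The 2 with the largest falls are shown, Mki67 at chr7:135716330-135716629 (minus strand) and Cdc20 at chr4:118437294-118437593 (minus strand), with the matches in capitals.
Mki67: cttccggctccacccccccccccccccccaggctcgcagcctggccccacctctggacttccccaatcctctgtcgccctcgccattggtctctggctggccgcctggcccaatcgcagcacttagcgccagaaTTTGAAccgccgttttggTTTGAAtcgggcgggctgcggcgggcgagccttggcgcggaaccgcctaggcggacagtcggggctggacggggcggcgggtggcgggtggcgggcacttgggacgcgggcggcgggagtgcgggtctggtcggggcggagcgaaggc
Cdc20: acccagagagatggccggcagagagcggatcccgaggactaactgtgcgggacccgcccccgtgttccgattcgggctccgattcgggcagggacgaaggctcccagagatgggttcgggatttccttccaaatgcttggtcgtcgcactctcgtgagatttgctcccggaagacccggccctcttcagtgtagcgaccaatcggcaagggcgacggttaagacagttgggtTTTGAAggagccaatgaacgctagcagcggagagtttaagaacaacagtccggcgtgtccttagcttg

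Growth and stress programmes were mostly lower. Of 33 MYC and ribosome biogenesis genes 22 were lower and 4 higher (median -0.71, 2 higher and 19 lower without replicate 1, 2 and 18 without replicate 2), with Mycn at least 6.41-fold lower, not well above background at day 3, and Heatr1 lowered in both differences (-1.51 ± 0.07 at day 3). Of 32 hypoxia and glycolysis genes 24 were lower and 2 higher (median -0.88). Vegfa, the vascular growth factor, fell, with a change of -1.91 ± 0.12, and -0.88 by a further probe. Hk2, hexokinase 2, had -1.11 and -1.05 in flox cells with tamoxifen, against 0.13 and 0.08 in flox cells without the drug and -0.06 and -0.34 in control cells with it, and it was lowered in both differences with Ndrg1. Of 18 ATF4 and amino acid stress genes 15 were lower and 2 higher (median -0.90, 2 higher and 12 lower without replicate 1, 0 and 14 without replicate 2), and 0 passed in both differences. Slc7a5, an amino acid transporter, fell by 2.15, but its further probe stood at 0.17. Of 15 ER folding genes 10 were lower and 0 higher. Hsp90b1, an ER chaperone, fell (-1.39 ± 0.07). Among 18 p53 targets 5 were higher and 7 lower (median -0.03, 5 higher and 4 lower without replicate 1, 4 and 4 without replicate 2), and Gadd45a and Plk2 were raised. Plk2 had -0.08 and 0.77 in flox cells with tamoxifen, against -1.18 and -1.02 in flox cells without and -1.60 and -1.48 in control cells with tamoxifen. Of 15 BCL2 family genes 3 were higher and 4 lower (1 higher and 2 lower without replicate 1, 1 and 2 without replicate 2), the pro-apoptotic Bcl2l11 at 0.90 ± 0.17 and Bak1 at -1.01 ± 0.08, and 0 passed in both differences.

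**Figure D4:**
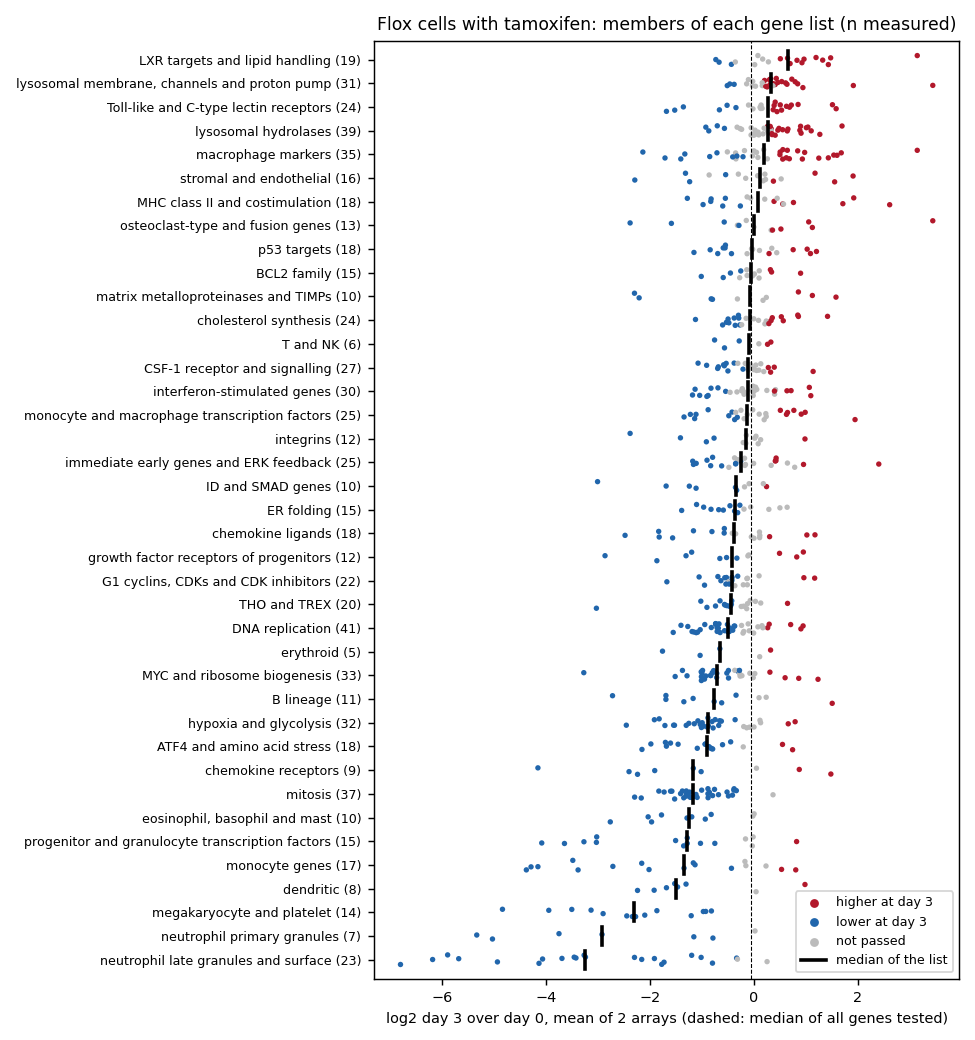
Log2 ratio of day 3 over day 0 in flox cells with tamoxifen (horizontal, mean of 2 arrays) of every measured member of each gene list (rows, with the number measured, ordered by median), coloured by the test, with a black bar for the list's median and a dashed line at the median of all genes, -0.05. The bars run from -3.24 for late neutrophil granule genes to 0.65 for LXR targets and lipid handling.

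Immune receptors and mediators went both ways. Of 9 chemokine receptor genes 6 were lower and 2 higher (median -1.16, 1 higher and 6 lower without replicate 1, 1 and 5 without replicate 2). Ccr2, described with the monocyte genes, stood lowest (-4.15 ± 0.10). Of 18 chemokine genes 8 were lower and 3 higher (2 higher and 7 lower without replicate 1, 1 and 6 without replicate 2), the monocyte attractants Ccl2 and Ccl7 at -1.83 ± 0.27 and -1.82 ± 0.22. Ccl8 had -0.17 and -1.45 in flox cells with tamoxifen, against 0.74 and 0.23 in flox cells without and 3.01 and 2.09 in control cells with tamoxifen. Cxcl1, a neutrophil attractant, had -0.24 and 0.14, against -1.59 and -1.30 in untreated flox and -1.60 and -2.31 in treated control cells, so it was raised without a change from day 0 that passed. Of 24 Toll-like and C-type lectin receptor genes 12 were higher and 6 lower (median 0.26, 7 higher and 4 lower without replicate 1, 6 and 4 without replicate 2). Clec7a, the beta-glucan receptor dectin-1, had 1.43 and 1.73 in flox cells with tamoxifen, against -0.31 and -0.40 in flox cells without the drug and 0.96 and 1.06 in control cells with it. Clec4e and Clec12a were raised as well. Of 18 MHC class II and costimulation genes 6 were higher and 7 lower (median 0.07, 3 higher and 4 lower without replicate 1, 3 and 6 without replicate 2), and the class II gene H2-Aa rose by 1.71 ± 0.30 with arrays of 2.31 and 1.11. Cd83 was raised by 2.93 ± 0.16, and Cd86 and Icosl, costimulatory ligands for T cells, were lowered, Cd86 with -1.09 and -1.47 in flox cells with tamoxifen, against 0.20 and 0.11 in flox cells without and 1.10 and 0.24 in control cells with tamoxifen. Of 30 interferon-stimulated genes 5 were higher and 8 lower at day 3 (3 higher and 3 lower without replicate 1, 3 and 6 without replicate 2), 0 were higher and 5 lower in the tamoxifen difference (median -0.56), and only Zbp1 was lowered in both differences.

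Adhesion, matrix and fusion genes, and the receptors of progenitors, complete the lists. Of 12 integrin genes 4 were lower, Itgb7 among them, and 1, Itgax, was higher. Itgal, the alpha chain of LFA-1, had 0.14 and -0.06 in flox cells with tamoxifen, against 1.69 and 1.54 in flox cells without the drug and 1.48 and 1.13 in control cells with it. Itgam, CD11b, was lowered (-0.86 ± 0.15 in the tamoxifen difference), with -0.37 and -0.96 by its further probes, and Itgb7 was raised by 0.98 ± 0.11. From day 0, though, Itgb7 fell in the deleted cells, at -1.50 to -1.33 over the alternatives. Of 10 matrix metalloproteinase and inhibitor genes 3 were higher and 4 lower at day 3. In the tamoxifen difference 5 were higher and 0 lower (median 0.74). In the genotype difference 0 were higher and 1 lower (median 0.18). Mmp12, macrophage elastase, rose, with 1.36 and 1.79, its further probe standing at 0.23. Mmp12 passed in the tamoxifen difference (2.34 ± 0.51, and 1.05 by the further probe) and not in the genotype difference (95% interval 0.26 to 2.74). Of 13 osteoclast and fusion genes 5 were higher and 4 lower (3 higher and 3 lower without replicate 1, 4 and 3 without replicate 2), Itgb3 the lowest (-2.38 ± 0.14, and -0.78 by a further probe). Of 12 growth factor receptor genes of progenitors 7 were lower and 3 higher (1 higher and 4 lower without replicate 1, 2 and 5 without replicate 2). Kit, the stem cell factor receptor, was not well above background at day 3 and was at least 5.44-fold lower, and Flt3 fell (-1.31 ± 0.12). Il7r and Csf2ra were the raised ones.

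**Figure D5:**
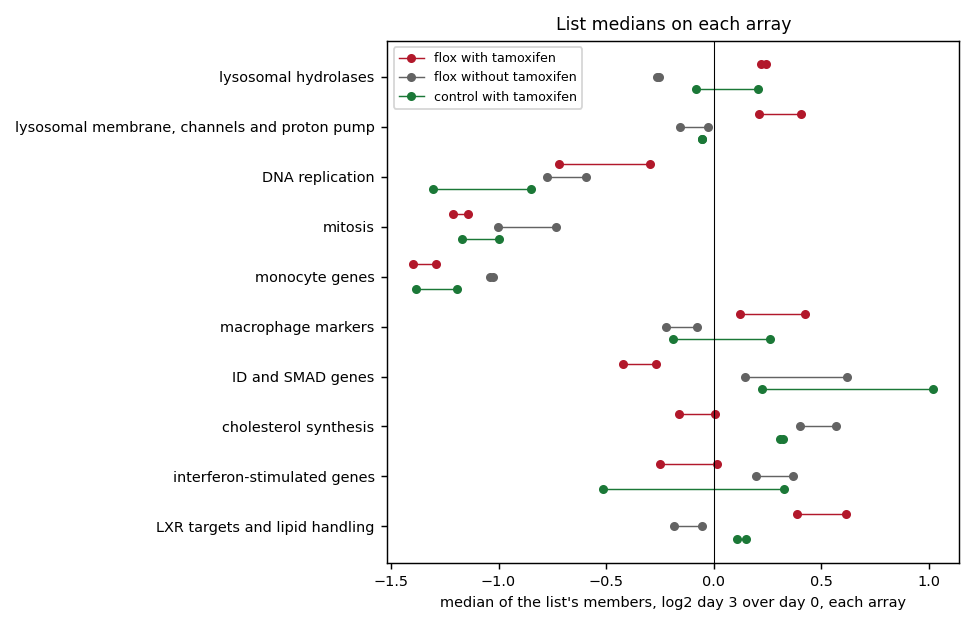
Median log2 ratio of day 3 over day 0 over the members of 10 lists (rows) on each array (horizontal), with flox cells with tamoxifen in red above flox cells without tamoxifen in grey and control cells with tamoxifen in green, and a line joining the 2 arrays of a group. The red points lie to the right of the others for both lysosome lists and to the left for ID and SMAD and for cholesterol synthesis genes. For the hydrolases the gap was narrow, with 0.22 on replicate 1 against 0.21 on replicate 1 of control cells with tamoxifen.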

How the data were processed

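Cytoplasmic RNA of 8 arrays was analysed, 2 in each group. The authors deposited 1 scanner file per array with mean and background intensities of both channels. Per the file headers it was made by Agilent's Feature Extraction software, version 10.7.3.1. The file also holds flags for spots above background, saturated or outlying. The authors' processed log10 ratios and the deposited value table were equal within 5e-10. Of 43020 spots without controls, 0.672% to 0.974% per array were outliers and left out.

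Intensities were corrected by normexp (offset 50), normalised by loess within each array and turned to log2 of day 3 over day 0 with limma 3.58.1 in R 4.3.3 (figures with matplotlib 3.10.9). Fits were made over 17997 genes, each read from the probe of highest mean intensity. The differences, and not the change from day 0, were also run on simulated arrays with known shifts. Their noise was independent, so the shared day 0 RNA was not simulated. Of 39429 probes 26412 were named by RefSeq accession. A model with a mean for each of 4 groups and an experiment term gave the contrasts, tested two-sided with Benjamini-Hochberg adjustment at 0.05. The experiment is a block because the design text names the replicate number as a biological experiment with its own dye direction, and same-numbered arrays deviated together (correlations of 0.31 to 0.729). In the genotype difference the groups had their own day 0 RNA, and in the tamoxifen difference they shared it.

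Named genes are Thoc5 and the 12 largest changes each way from day 0. To these come 10 genes each way that passed in both differences, ranked by the smaller of their 2 differences. In each list up to 3 rises, up to 3 falls and the members that passed in both differences are named too. A few other members were named after their values were seen. Some members are not reported here by name. Members and lists were chosen with earlier results of these data known. Depth has no meaning for arrays, and the number of arrays limits the precision. Whole-cell RNA was not measured, and lower transcript amounts in the cell cannot be told apart from lower export. Alternatives were the processed ratios, other filters and probe rules, other fits, a 2-fold limit, and leaving out each array.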

Additional observations from a re-analysis of the deposited data

Results flagged for a closer look

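The change from day 0 to day 3 differed between groups by the test of the difference itself. It differed between flox cells with and without tamoxifen for 1624 genes and between flox and control cells with tamoxifen for 2026 genes. In both comparisons 535 genes were higher and 480 lower in flox cells with tamoxifen, which were the same 2 arrays in each.

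The 10 genes raised most in both comparisons were ranked by the smaller of their 2 differences. Their tamoxifen differences (flox cells with minus flox cells without tamoxifen, log2) were 3.66 for Mcoln3, 3.59 for C77080 and 3.22 for H2-M2. Gm14461 had 3.01, Il7r 2.75 and Oit3 2.42. Mctp1 stood at 2.18, Rasgef1a at 2.16, Htr2b at 1.93 and Anxa1 at 1.90. Among the 10 genes lowered most by the same rule, Id1 had -3.51, Ccl12 -2.97, Nrxn2 -2.78, Raver2 -2.70, LOC100045212 -2.62 and Cd209f -2.50. Smad6 had -2.31, Thoc5 -2.27, Il2ra -2.27 and Dmwd -2.22. The deletion and the drug enter the tamoxifen difference together and cannot be told apart in it.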

How the results depend on the processing

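Thoc5 stayed between -3.04 and -3.01 from day 0 when each array was left out in turn. The change from day 0 was called for 5886 to 11246 genes when each array was left out, and for 2095 with a 2-fold limit. Without the replicate block 8577 genes passed in it. The tamoxifen difference had 211 to 2391 genes without single arrays, 475 with a 2-fold limit, 470 with no replicate block, 2905 where day 0 RNA was a random block and 4582 where only the compared arrays were fitted. The genotype difference had 0 to 3018 genes without single arrays, 499 with a 2-fold limit, 531 with no replicate block, and 1239 with the processed ratios and with the deposited value table alike. The genes higher and lower in both differences numbered 137 and 118 with no replicate block, 114 and 133 with a 2-fold limit, 0 and 0 without replicate 1 of control cells with tamoxifen, and 11 and 13 without its replicate 2. Leaving out an array of a compared group leaves 1 sample there, assumed to vary like the other groups. Of the values that passed the test, 1 changed direction, Lamp2, at 0.19 from day 0 with the mean of all its probes, and some that had not passed, such as Plk2 and Cxcl1, lay on either side of 0. Over all pairs of a named value and an alternative, 397 lost the call and 18 gained it. The cause was not tested.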
